A study of Rhagoletis pomonella with 50 samples.

Results

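Central nervous system (CNS) RNA was compared between hawthorn-reared pupae of the fly Rhagoletis pomonella after 4 and after 2 months in the cold. The comparison used 8 of the series' 50 libraries, 3 of 4 months (replicates 1, 3 and 5) and all 5 of 2 months. Hawthorn replicates 2 and 4 of 4 months were left out because long transcripts were under-represented in them, and this choice was made on measured values. All 50 libraries were polyA RNA, each from a pool of 10 dissected CNS, with 5 pools for each of 2 larval hosts (apple or hawthorn fruit) at 2, 3, 4, 5 and 6 months. Infested fruit came from a single Illinois locality. The collected larvae pupated at 24 °C under a 14:10 h light cycle for 10 days, and the diapausing pupae were then kept at 3.5 °C and 95% relative humidity until dissection. No treatment other than host fruit and time in the cold is given. Each library is a different pool, so no animal was followed over time.

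Rhagoletis pomonella has one generation a year and passes the winter as a pupa in diapause, a hormonally controlled arrest of development that starts before the cold arrives. Chilling is part of the passage through diapause, and its length affects when development resumes and adults emerge. Apple-feeding and hawthorn-feeding flies differ in the timing of this cycle, which follows the fruiting of their hosts, and the brain and its neurosecretory cells control the hormone signals that end the arrest.

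The deposited values are expected counts per feature, that is, estimated reads that need not be whole. The files do not pair their numbered identifiers with gene names. Of 29399 identifiers, 0 were found in the reference gene table, so no feature is named or given a function, no sequence is shown, and no gene list could be described. For the same reason the labelled tissue could not be checked against markers of neurons, glia, fat body, muscle, hemocytes or trachea. In RNA of a whole tissue, fewer cells of a type and less RNA per cell cannot be told apart.

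Totals of expected counts ranged from 8718271 to 19103881 over the 8 libraries. The slope of expression on log2 transcript length, in log2 CPM (counts per 1000000 of the scaled library total) for each unit of log2 length, was -0.26 and -0.27 in the libraries left out. Among the 4-month libraries used it was 0.10, -0.10 and -0.06, and the lowest value of any other library of the series was -0.13. The longest tertile of the tested features held 17.4% and 18.8% of the counts in the libraries left out, and 39.5%, 30.8% and 30.2% in replicates 1, 3 and 5. Replicate 1 stood at the other end of the 4-month libraries in length representation, while the 2-month libraries lay between 28.1% and 34.3%.

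Between 2 and 4 months, 571 of 14342 tested features changed (3.98%), 316 of them higher at 4 months (2.20%) and 255 lower (1.78%). These calls come from edgeR's quasi-likelihood test at a Benjamini-Hochberg adjusted p under 0.05. Changes were mostly moderate. The median log2 fold change was 0.74 for the features that rose and -0.75 for those that fell, against 0.01 over all features tested. At least a 1.5-fold change was fitted for 423 of the 571, at least 2-fold for 157 and at least 4-fold for 23. The smallest change that was called was 0.29 on the log2 scale among the risers. The CPM values of the 3 and the 5 libraries did not overlap for 275 of the 316 risers and 231 of the 255 fallers. Over all tested features, 6.17% had 4-month values wholly above and 5.95% wholly below the 2-month values.

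**Figure D1:**
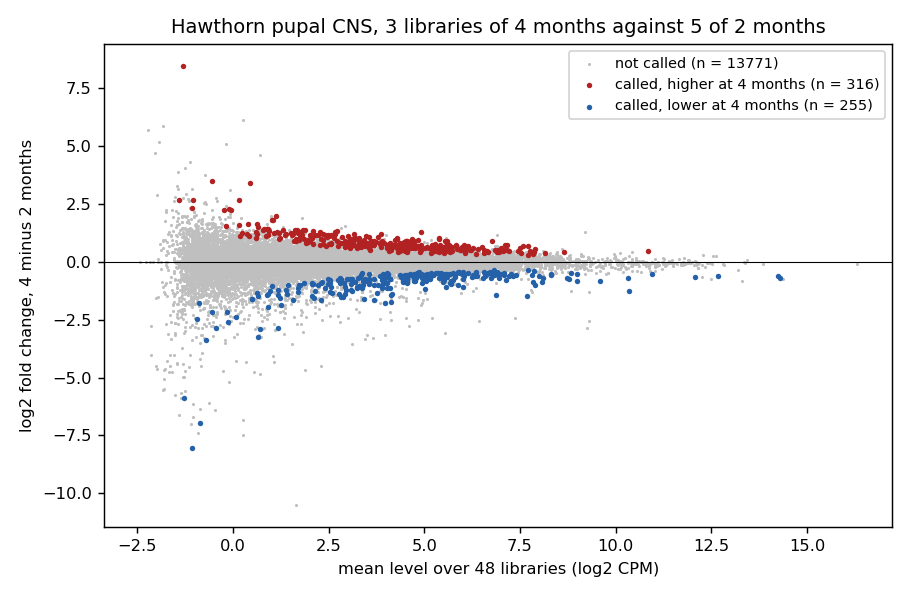
Log2 fold change in hawthorn from 2 to 4 months (y axis) against mean level over 48 libraries in log2 CPM (x axis), 1 point per tested feature. The 316 called features that were higher and the 255 that were lower are coloured. Called features of low level have larger fold changes than those of high level.

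Features that fell started from higher levels than features that rose. On the deposited TPM scale, which corrects read numbers for transcript length, the median 2-month level was 12.6 TPM for the fallers, 3.85 TPM for the risers and 3.11 TPM for all tested features. At 4 months the medians were 7.69 TPM for the fallers and 7.39 TPM for the risers. The same libraries sorted the features by direction, so the higher start of the fallers and the narrowing by 4 months are partly set by that choice. At 2 months 25 fallers (9.80%) and 5 risers (1.58%) had a mean of at least 100 TPM, against 4.94% of the tested features. At the low end, 30 risers averaged under 1 CPM at 2 months and 21 fallers averaged under 1 CPM at 4 months. Absence from a whole group was rare. A count of 0 in all 5 libraries of 2 months was found for 1 riser, and a count of 0 in all 3 libraries of 4 months for 2 fallers. With these at the bound that a floor of 3 counts over the group allows, the medians of both sets stayed at 0.74 and -0.75.

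The share of features called followed their level. With the features in 4 classes of equal size by mean level, 28 were called in the lowest class (0.781%), then 96 (2.68%), 187 (5.22%) and 260 in the highest (7.25%). The median standard error (SE) of the log2 fold change fell over the same classes from 0.64 to 0.34, 0.22 and 0.16. Small changes of scarce features could therefore be missed in this comparison. By length, 94 of the shortest tertile of features were called, 166 of the middle tertile and 311 of the longest (1.97%, 3.47% and 6.50%). Direction also went with length. Among the shortest tertile 32 rose and 62 fell, and among the longest 181 rose and 130 fell. Over all tested features the median log2 fold change was -0.03 in the shortest tertile and 0.04 in the longest. Against the 2-month mean, the median log2 CPM of all short features lay at -0.23, 0.06 and 0.04 in replicates 1, 3 and 5 of 4 months. For all long features it lay at 0.19, -0.07 and -0.04. The median length was 2414 bp for the risers, 2209 bp for the fallers and 1628 bp for all tested features. Because the libraries differed in length representation, and replicate 1 of 4 months most among those used, the part of that difference in these counts by length was not tested feature by feature. With the length slope of each library as a covariate 788 features were called, 558 of them among the 571. Of features with a single annotated isoform 3.51% were called, with 2 to 3 isoforms 4.26%, and with 4 or more 7.81%. The median SE fell over these isoform classes as well, from 0.32 to 0.22 and 0.20. From the shortest to the longest tertile it fell from 0.38 to 0.28 and 0.21. The part of this precision in the shares called was not tested.

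Among features with a mean of at least 1 on the log2 CPM scale and groups that did not overlap, gene15716 and gene11709 rose most. Gene15716, with 2 annotated isoforms, stood at 0.252, 0.757, 0, 0.473 and 1.29 CPM in the 2-month libraries. It stood at 1.62, 2.97 and 2.58 CPM in the 4-month libraries. All 3 values lay above all 5, and the log2 fold change was 1.98 (SE 0.44, edgeR adjusted p = 0.00488). These levels rest on few reads, from 0 to 24 expected counts per library at 2 months and from 21 to 34 at 4 months. The libraries left out held 2.34 and 2.45 CPM, within the range of the 3 used. Its mean went on to 4.33 ± 0.573 CPM at 5 months and 4.90 ± 0.758 CPM at 6 months (SD, n = 5).

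Gene11709, a feature of 1 isoform and 1442 bp, stood at 0.126, 1.51, 0.238, 0.788 and 1.34 CPM at 2 months. At 4 months it stood at 4.13, 1.84 and 2.71 CPM. The 2-month levels rest on few reads, from 2.35 to 24.75 expected counts per library. The groups were apart by a small margin, since the lowest 4-month library exceeded the highest 2-month library by less than the spread within either group. The log2 fold change was 1.82 (SE 0.43, edgeR adjusted p = 0.00908). Without replicate 1 of 4 months it was 1.47 with an adjusted p of 0.134, so the call rests on that library. The libraries left out held 0 and 0.245 CPM and did not show the rise.

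The largest falls by the same rule were those of gene18241 and gene3707, each with 1 isoform. Gene18241, of 774 bp, stood at 1.45, 2.44, 5.96, 3.63 and 3.75 CPM at 2 months and at 0.203, 0.350 and 0.985 CPM at 4 months. Every 4-month library used lay below every 2-month library. Those 4-month levels rest on few reads, 3.33, 4.14 and 7.93 expected counts. The log2 fold change was -2.85 (SE 0.73, edgeR adjusted p = 0.0172). The libraries left out did not share the fall: they held 1.80 and 11.4 CPM, the latter above every 2-month library. The feature is in the shortest tertile by length. All tested features of that tertile lay at a median of 0.39 and 0.32 log2 CPM against the 2-month mean in the libraries left out. With the libraries left out included, the log2 fold change was -0.25 (edgeR adjusted p = 0.838). Without replicate 1 of 4 months the adjusted p was 0.154, and without replicate 3 it was 0.0930.

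Gene3707, of 2644 bp, fell from 2.40, 3.03, 4.05, 2.37 and 5.74 CPM at 2 months to 1.22, 0.875 and 0.739 CPM at 4 months. Its 4-month levels also rest on few reads, 18, 10 and 6 expected counts. The log2 fold change was -1.86 (SE 0.41, edgeR adjusted p = 0.00502). Here the libraries left out, at 0.269 and 1.10 CPM, also lay below every 2-month library. The feature is in the longest tertile by length. All tested features of that tertile lay at a median of -0.36 and -0.42 log2 CPM against the 2-month mean in these libraries. The part of this in the low values was not tested. Its mean stayed near the 4-month level afterwards, at 1.03 ± 0.328 CPM at 5 months and 0.913 ± 0.409 CPM at 6 months (SD, n = 5). It kept its call without any single library of the comparison, as did gene15716. Among the other fits, the adjusted p passed 0.05 with lane as a term for gene3707 (0.0546) and gene18241 (0.0543). With only the groups compared in the fit it did so for gene15716 (0.119) and gene11709 (0.134). Gene11709 also lost its call with all 50 libraries (log2 fold change 1.13, adjusted p = 0.143) and by voom with quality weights (adjusted p = 0.0536).

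**Figure D2:**
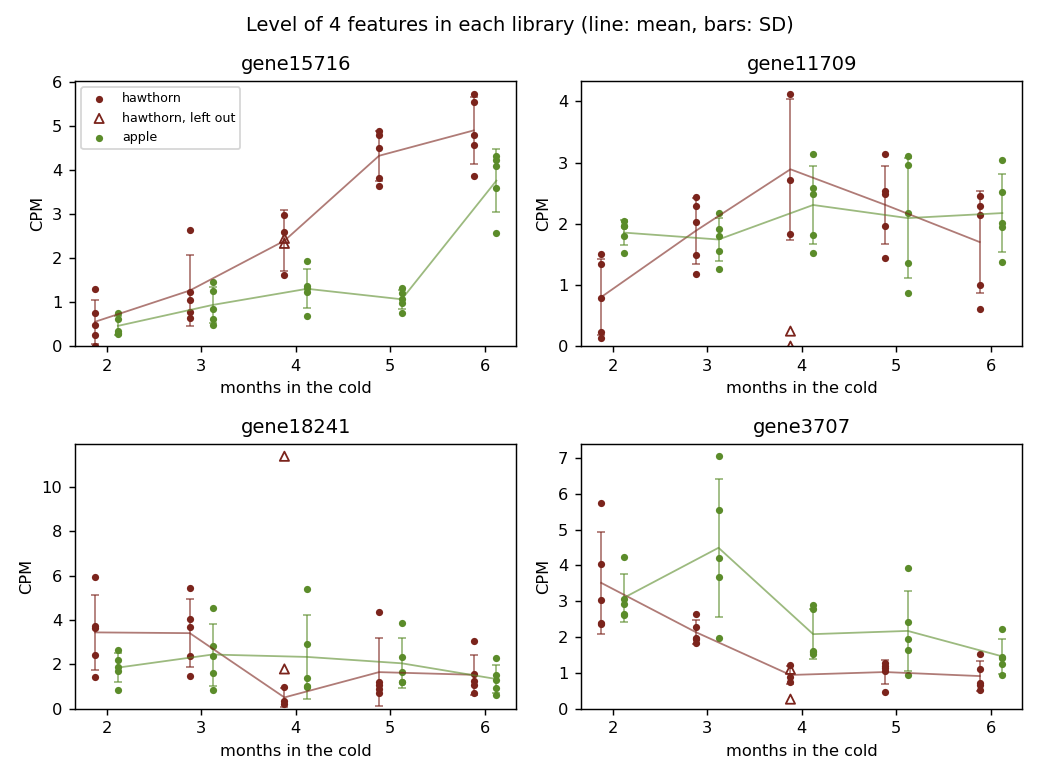
Level in CPM (y axis, linear, a separate scale per panel) of gene15716, gene11709, gene18241 and gene3707 in each library by months in the cold (x axis). Points are libraries of hawthorn and apple, open triangles the 2 hawthorn libraries left out, lines join group means and bars are SD. Gene15716 goes on rising to 6 months in hawthorn, and the left-out library at 11.4 CPM stands far above the others for gene18241.

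Taken as sets, the changed features moved a larger share of the RNA downwards than upwards. The 255 fallers held between 8.29% and 9.47% of the counts in the 2-month libraries, and 5.35%, 6.26% and 6.57% in replicates 1, 3 and 5 of 4 months. The 316 risers held between 0.798% and 0.913% at 2 months, and 1.70%, 1.25% and 1.23% at 4 months. These shares describe the calls, since the same libraries chose the features. Replicate 1 was the farthest from the 2-month libraries in both sets.

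The 2 libraries left out had no part in the calls. For each library, the shift of a set was taken as the median over its features of the log2 CPM minus the mean log2 CPM of the 2-month libraries of the same host. The fallers shifted by -0.68 and -0.72 in the libraries left out, close to the -0.78, -0.80 and -0.73 of the libraries used. The risers shifted by 0.25 and 0.21, against 0.87, 0.62 and 0.59. In the left-out replicate 2, 220 of the 255 fallers (86.3%) lay below the 2-month mean and 197 of the 316 risers (62.3%) above it. In replicate 4 the counts were 213 (83.5%) and 181 (57.3%). Over all tested features 50.9% and 51.1% lay below. These medians over whole sets differed by length class. The 181 risers of the longest tertile shifted by 0.19 and 0.06 in the libraries left out, the 103 of the middle tertile by 0.38 and 0.57, and the 32 of the shortest by 0.26 and 0.27. In the libraries used the short risers shifted by 0.92, 1.10 and 0.83. In the left-out libraries the longest tertile of all tested features shifted by -0.36 and -0.42, and the shortest by 0.39 and 0.32. The 130 fallers of the longest tertile shifted by -0.85 and -0.95 there, and the 62 of the shortest by -0.57 and -0.44. The 63 fallers of the middle tertile shifted by -0.37 and -0.30 in the libraries left out, against -0.88, -0.71 and -0.71 in those used. Long features make up 130 of the 255 fallers, and the median over all tested long features also lay downwards in the libraries left out (-0.36 and -0.42). The part of this in the median of the fallers was not tested. The 2-month baseline of these shifts is the one used for the calls, so they are a description.

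**Figure D3:**
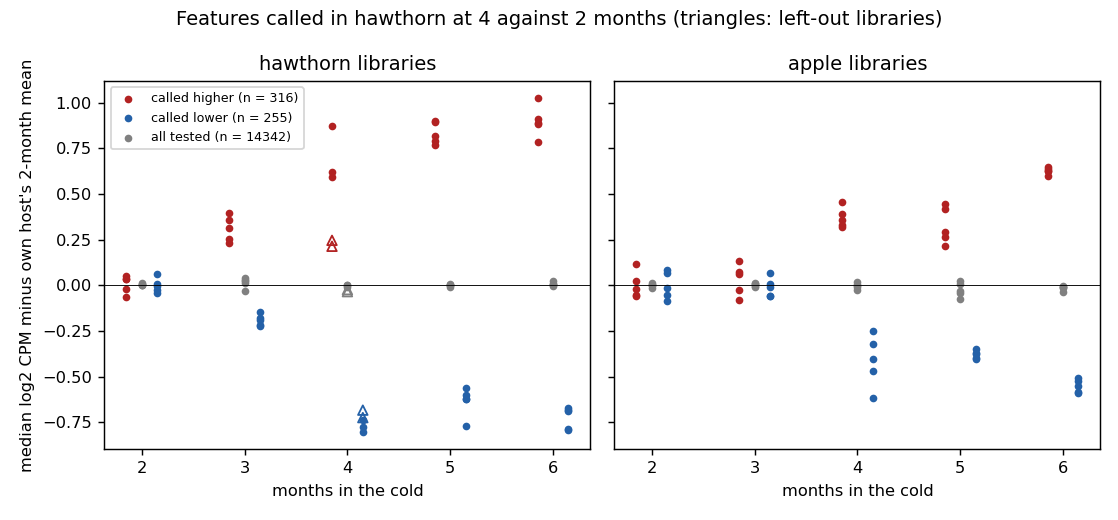
Shift of the called features in each library (y axis, median log2 CPM minus the mean of the same host's 2-month libraries) by months in the cold (x axis), for hawthorn and apple. Points are libraries: 316 risers, 255 fallers and all 14342 tested features, with open triangles for the 2 libraries left out. The left-out libraries lie close to the used ones for the fallers, at -0.68 and -0.72, and between the 2-month and 4-month levels for the risers.

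The deposited names of the libraries carry a tag that was taken here as the sequencing lane, although the labels do not describe it, and it was partly tied to month. Of the 2-month libraries 3 had the tag of lane 1 and 2 that of lane 7, and of the 4-month libraries used replicate 1 had that of lane 1 and replicates 3 and 5 that of lane 2. Within lane 1, replicate 1 against the 3 libraries of 2 months gave a median log2 difference of 0.88 for the risers, of which 314 of 316 were higher, and -0.73 for the fallers, of which 99.6% were lower. Over all tested features 50.2% were higher and 49.6% lower, with a median of 0.003. Of the 4-month libraries used only replicate 1 has this tag, which allows no test, and these libraries helped to make the calls. With lane as a term in the fit 392 features were called, 338 of them among the 571. A principal component analysis of the 8 libraries placed the 4-month libraries between 24.4 and 43.3 on the first component (25.7% of the variance) and the 2-month libraries between -49.7 and 4.56. The 2-month libraries with the tag of lane 7, which no 4-month library has, stood at -49.7 and -41.1. Those of lane 1 stood at 4.56, 3.52 and -22.8, and replicate 1 of 4 months, also of lane 1, at 43.3. Month and lane are therefore not fully told apart on this component.

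The called features were followed through the other hawthorn months. Comparisons with 2 months share the 2-month libraries, and those with 4 months share the 4-month libraries, so their values are set side by side only. The risers shifted by 0.31 ± 0.070 at 3 months, 0.70 ± 0.15 at 4 months (n = 3), 0.83 ± 0.060 at 5 months and 0.90 ± 0.087 at 6 months (SD over libraries, n = 5). The fallers shifted by -0.19 ± 0.030, -0.77 ± 0.035, -0.64 ± 0.079 and -0.73 ± 0.060. Levels at 3 months thus lay between those of 2 and 4 months in each of the 5 libraries of 3 months, and closer to 2 months for the fallers. After 4 months the riser mean went on upwards, and replicates 3 and 5 of 4 months (0.62 and 0.59) lay below every library of 5 and 6 months. Replicate 1 of 4 months, at 0.87, lay within the range of those libraries (0.77 to 1.03). The faller mean lay no further down at 5 or 6 months than at 4 months. The libraries of 2 and 4 months also chose these features.

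Calls over all features in these intervals were as follows. Between 2 and 3 months 38 features were called (0.265%), 16 higher (0.112%) and 22 lower (0.153%). Between 2 and 5 months the count was 3144 (21.9%; 11.7% higher and 10.3% lower), and between 2 and 6 months 3730 (26%; 13.9% higher and 12.1% lower). With 5 libraries a side these comparisons had a lower median SE (0.24) than that of 4 with 2 months (0.28). From 3 to 4 months 271 features changed (1.89%), 157 of them higher (1.09%) and 114 lower (0.795%). The leading fall was again gene18241, at 3.41 ± 1.54 CPM at 3 months (SD, n = 5), with a log2 fold change of -2.87 (SE 0.73, edgeR adjusted p = 0.0255). This call was lost in 6 of 18 alternative fits. With all 50 libraries the log2 fold change was -0.26 (adjusted p = 0.811). The adjusted p was 0.0722 with lane as a term, 0.127 and 0.142 without replicates 1 and 3 of 4 months, and 0.0615 and 0.0507 without replicates 2 and 3 of 3 months. The leading rise was that of gene26150, from 2.11 ± 0.365 CPM at 3 months (SD, n = 5) to 3.65, 15.05 and 3.08 CPM at 4 months. Replicate 3 stood far above the others, and without it the log2 fold change dropped from 1.79 to 0.70 (edgeR adjusted p = 0.430). All 3 values, and the 6.38 and 4.90 CPM of the libraries left out, lay above every 3-month library (at most 2.63 CPM). The feature is in the shortest tertile by length, whose median also lay upwards in the libraries left out. The part of this in their values was not tested. With all 50 libraries the log2 fold change was 1.65 (edgeR adjusted p = 0.000847). The call was lost in 2 of 18 alternative fits, also with only the groups compared (adjusted p = 0.0953).

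Between 4 and 5 months edgeR called 2 features (0.0139%), both lower at 5 months. Without adjustment 2074 features had p under 0.05, and the count by DESeq2 was 47. Gene4653, an abundant feature of 1002 bp (11824 ± 763 TPM at 4 months, SD, n = 3), stood at 9328, 10999 and 11996 CPM at 4 months and at 6500, 6082, 5178, 6145 and 5801 CPM at 5 months. The groups did not overlap, and the log2 fold change was -0.86 (SE 0.16, edgeR adjusted p = 0.0451). Its course over the months was not a steady one: the means were 11845 ± 1927 CPM at 2 months, 7334 ± 1403 CPM at 3 months and 4927 ± 685 CPM at 6 months (SD, n = 5). The left-out libraries of 4 months held 10563 and 2823 CPM. The call is near the threshold and was lost in 12 of 18 alternative fits. The other feature, gene1731, was singled out after its values were seen. It stood at 12.9 CPM in replicate 3 of 4 months (147 expected counts) and at 0.271 and 0.246 CPM in replicates 1 and 5, against 0.227 to 0.753 CPM at 5 months. Without replicate 3 its log2 fold change turned from -3.60 to 0.46 (edgeR adjusted p = 0.904), so the call is of that 1 library. The same library carried its call for 4 against 2 months (log2 fold change 3.49, adjusted p = 0.00258), and the 2-month libraries held 0.119 to 0.673 CPM.

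Apple-reared pupae of the same months gave a comparison with its own 10 libraries. In apple 1036 features were called between 2 and 4 months (7.22%), 590 higher (4.11%) and 446 lower (3.11%). Of the hawthorn risers 123 were also called higher in apple, and of the hawthorn fallers 94 were also called lower. These 217 features are 38.0% of the hawthorn calls and 20.9% of the apple calls, and 0 were called in opposite directions. Of the 571 hawthorn calls 531 had the same sign in apple (93.0%), against 62.7% of all tested features. Sizes in apple were smaller for these features: the median log2 fold change was 0.38 for the hawthorn risers and -0.40 for the fallers, with quartiles of 0.21 to 0.66 and -0.58 to -0.20. The features were selected on the hawthorn change, so the sizes in the hosts were not chosen in the same way and are not compared by a test. Across the 571 called features the fold changes of the hosts had a Pearson r of 0.54 and a Spearman rho of 0.78, and across all 14342 features 0.25 and 0.32. Features are not independent replicates and no p is given. The apple libraries of 2 and 4 months share no sequencing lane, and 74 apple features were called with lane as a term.

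**Figure D4:**
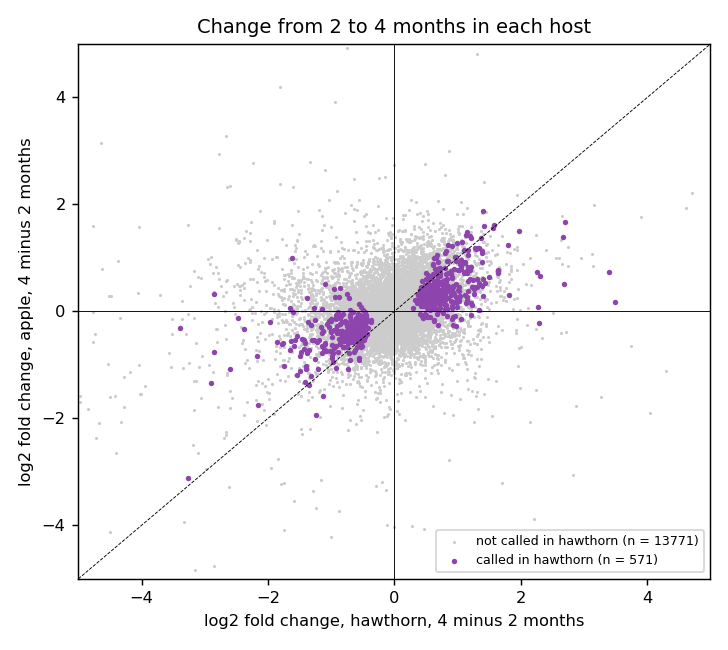
Log2 fold change from 2 to 4 months in apple (y axis) against hawthorn (x axis), 1 point per tested feature, with the 571 hawthorn calls coloured and a dashed line of equal change. Axes end at 5 in either direction, which leaves out 33 features, 4 of them called. Of the called features 531 have the same sign in both hosts, and their apple changes are smaller in the median.

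By library, the same features were followed in apple. The hawthorn risers stood at 0.03 ± 0.084 in apple at 3 months, 0.37 ± 0.054 at 4 months, 0.33 ± 0.10 at 5 months and 0.63 ± 0.018 at 6 months (SD, n = 5 libraries, against the apple libraries of 2 months). The fallers stood at -0.01 ± 0.054, -0.41 ± 0.14, -0.38 ± 0.022 and -0.55 ± 0.036. At 3 months the apple libraries overlapped with those of 2 months in both sets, and at 4, 5 and 6 months they did not. At 3 months the hosts' libraries did not overlap either, with hawthorn between 0.23 and 0.40 for the risers and apple between -0.08 and 0.13. The sets were chosen on hawthorn libraries, so this difference in size and time between hosts is a description.

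Whether the hosts differed in their change over these months was tested as an interaction. It called 0 features by edgeR, with 1354 at an unadjusted p under 0.05, and 21 by DESeq2. The smallest adjusted p was 0.0507. Among the hawthorn risers 100 (31.6%) and among the fallers 82 (32.2%) had an unadjusted p under 0.05, against 9.44% of all tested features, but these sets were selected on the hawthorn side of the same difference. The median of this difference (apple minus hawthorn) was -0.35 for the risers and 0.37 for the fallers. For gene15716 the rise in apple was 1.499 on the log2 scale (SE 0.39, edgeR adjusted p = 0.0107), and its host difference was -0.48 with a 95% interval from -1.68 to 0.72. Gene18241 stood at 1.86 ± 0.666 CPM in apple at 2 months and at 2.34 ± 1.89 CPM at 4 months (SD, n = 5), and its host difference was 3.17 with a 95% interval from 1.40 to 4.94 (edgeR adjusted p = 0.224). Gene11709 was already at 1.86 ± 0.208 CPM in apple at 2 months, and was at 2.31 ± 0.643 CPM at 4 months (SD, n = 5). At 2 months its lowest apple library, at 1.517 CPM, barely passed the highest of the 5 hawthorn libraries, at 1.513 CPM. Its host difference was -1.50 with a 95% interval from -2.62 to -0.38 (edgeR adjusted p = 0.380). Gene3707 stood at 3.10 ± 0.671 and 2.08 ± 0.699 CPM in apple, with a host difference of 1.29 and a 95% interval from 0.26 to 2.32 (adjusted p = 0.408).

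A second readout was the length of a feature averaged over its isoforms, which shifts when reads are assigned to isoforms of another length. Of 2949 features tested with limma, 3 changed (0.102%), all to a greater length at 4 months, and 196 had an unadjusted p under 0.05. These 3 are named after their values were seen. Gene15781, with 2 isoforms, was listed at 1921 bp in 4 of the 2-month libraries, at 1978 bp in replicate 5, and at 2064 bp in all 3 libraries of 4 months (limma adjusted p = 0.0144). Its reads were few, from 12 to 33 expected counts per library, and the libraries left out were listed at 1921 bp. Gene6523, with 11 isoforms, was listed at 4049, 4104, 4182, 4160 and 4113 bp at 2 months and at 4290, 4241 and 4257 bp at 4 months (limma adjusted p = 0.0144). Its counts also fell, with a log2 fold change of -0.57 (edgeR adjusted p = 0.0215), and it was the 1 feature called in both readouts. The libraries left out were listed at 4018 and 4096 bp, within or below the range of 2 months. For gene15428 the shift was from 3891 ± 3.05 bp (SD, n = 5) to 3903 ± 3.34 bp (SD, n = 3), with a limma adjusted p of 0.0394, a change of few bases resting on 10428 to 22762 expected counts per library. Since libraries were chosen by a length measure, these values bear that choice, and 0 features were called when the fit held the hawthorn libraries of 2 and 4 months only.

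The number of hawthorn calls varied with the libraries. Leaving out each of the 8 in turn gave from 200 to 546 calls, with 200 without replicate 1 of 4 months, 377 without replicate 3 and 357 without replicate 5. Called in all 8 of these fits were 105 features (62 higher, 43 lower), which is 18.4% of the 571, and 67 (31 higher, 36 lower) were called in all 18 alternative fits. Over these fits, those of the 571 features that could be tested (from 521 to 571) had a median size of 0.68 to 0.78 on the log2 scale. The fits share most of their libraries, and the same libraries chose these features, so the like sizes are a description only. With the 2 left-out libraries included 1712 features were called, 890 higher and 822 lower, and 383 of these were among the 571.

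**Figure D5:**
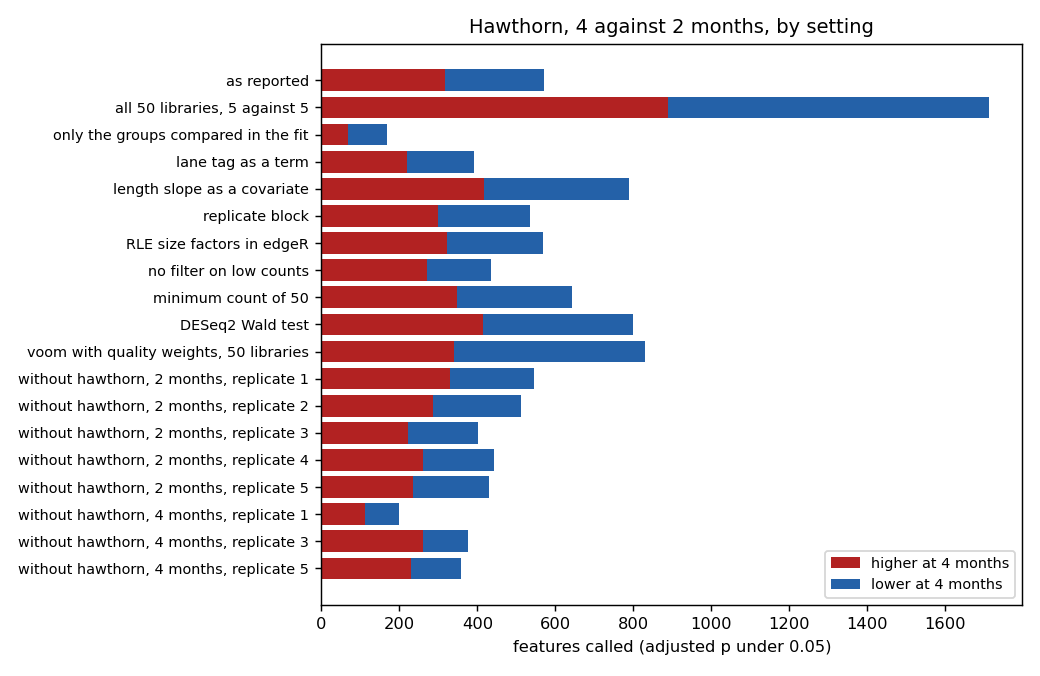
Number of features called between 2 and 4 months in hawthorn (x axis, bars from 0, split into higher and lower) under each setting (y axis). The count as reported is 571, the highest is 1712 with all 50 libraries, and the lowest is 169 with only the 8 hawthorn libraries in the fit.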

How the data were processed

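Per the submitters' processing notes and the series' design text, single-end reads of 100 bp from strand-specific polyA libraries were aligned by STAR to the R. zephyria genome, that of a related species, and counted with RSEM. Tool versions, build and annotation: not given in the sources used here. Per the file headers, the deposited values are expected counts, TPM (length-corrected relative abundance, made by the authors with RSEM and used here for levels between features) and isoform-averaged length. RSEM divides reads shared by similar features, so near-identical copies are uncertain.

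Expected counts were rounded. The model held 48 libraries (all but the 2 left out) and 10 group means. Features passed filterByExpr (minimum count 10, minimum total 15), which left 14342 features holding 99.9% of all counts. TMM scaled the libraries, and CPM (counts per 1000000) is relative to the scaled total. The left-out libraries were scaled with factors from all 50. Tests were edgeR 4.0.16's quasi-likelihood F test (robust, earlier form) with Benjamini-Hochberg adjustment over all 14342 features, called under 0.05; SE derives from the F statistic. Isoform length was tested with limma 3.58.1 on log2 values, for features with at least 10 counts in each library and a length that varies. DESeq2 1.42.0 was an alternative, R was 4.3.3, and figures used matplotlib 3.10.9 in Python 3.11.15. The scripts were tested on simulated data.

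Named features were the 2 largest rises and falls among calls with mean log2 CPM of at least 1 and groups that did not overlap, and the largest in each direction from 3 to 4 and from 4 to 5 months. The libraries, lists and rules were chosen with earlier results of these data known. The planned gene lists and markers matched 0 features. Nothing says that pools came from separate cultures, so p-values measure the spread between these pools, which may be technical. Totals over all 50 libraries ranged from 8718271 to 30540959.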

Additional observations from a re-analysis of the deposited data

Results flagged for a closer look

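In 49 groups of 5 libraries examined, 6 held a library far from the other 4. The limit used flags about 1 in 20 groups of normally distributed values. Most values here are CPM of features with few reads, for which that rate need not hold. Gene18241 stood at 4.37 CPM in replicate 5 of hawthorn at 5 months, with the next at 1.20 CPM. Gene3707 stood at 0.458 CPM in replicate 1 of hawthorn at 5 months, where the next was 1.06 CPM, and at 4.25 CPM in replicate 5 of apple at 2 months, where the next was 3.07 CPM. Gene26150, which stood high in replicate 3 of 4 months, was also at 9.47 CPM in replicate 3 of hawthorn at 5 months, with the next at 3.99 CPM. Gene1731 stood at 0.753 CPM in replicate 5 of hawthorn at 5 months, with the next at 0.352 CPM. The length of gene15781 was 1978 bp in replicate 5 of hawthorn at 2 months and 1921 bp in the other 4. With 4 equal values, any other value is flagged. The groups of 3 libraries at 4 months were not examined in this way.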

How the results depend on the processing

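For hawthorn from 2 to 4 months, the count of 571 became 1712 with all 50 libraries and 169 with only the groups compared in the fit. It became 200 to 546 without each replicate in turn. It stayed within 1.5 times under lane, length slope, RLE scaling, both filters, DESeq2 and voom weights (392 to 831). A like count does not mean the same features. Of the 831 by voom, 442 were among the 571, and 339 were higher and 492 lower. The apple count of 1036 became 660 with all 50 libraries, 645 with the groups compared only and 74 with lane as a term, and 612 to 1082 without each replicate. The count of 0 for the host difference became 2 with all 50 libraries, 8 with the length slope, 4 with RLE scaling, 1 with a minimum count of 50, 21 by DESeq2 and 5 by voom, and 0 to 6 without each replicate. From 3 to 4 months, 271 became 2670 with all 50 libraries, 83 with the groups compared only, 142 with lane, 551 by DESeq2 and 1233 by voom, and 113 to 330 without each replicate. From 4 to 5 months, 2 became 3581 with all 50 libraries, 0 with the groups compared only, 0 with lane, 1 with the length slope, 0 with a minimum count of 50, 47 by DESeq2 and 2194 by voom, and 0 to 125 without each replicate. The 3 length calls became 23 with all 50 libraries, 0 with the groups compared only and 1 with lane, and 0 to 10 without each replicate. The cause of these changes was not tested. The log2 fold change of gene1731 from 4 to 5 months was -4.18 to 0.46 without each replicate, and reversed to 0.46 without replicate 3 of hawthorn at 4 months. Deviations of same-numbered libraries of 2 and 4 months had correlations of -0.04, 0.09 and 0.02, within the -0.17 to 0.21 of pairs of unlike number. These few pairs cannot settle whether the numbers pair the libraries, and the labels do not say. With the replicate number as a block the hawthorn count was 536, and the 4 to 5 month count was 0.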
